A study of Mus musculus with 12 samples.

Results

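These are the 264 stretches of mRNA that both RBM25 immunoprecipitations of control inner ear organoids listed and that no other IP or IgG list of the study held. The sites of 8 deposited lists were merged into regions wherever they shared 1 bp or more, which gave 1548 regions. A region was taken when it had a site in control IP 1 and in control IP 2 and none in either control IgG list, either depleted IP list or either depleted IgG list. This pattern was found in 17.1% of all merged regions and in 46.3% of the 570 regions shared by both control IP lists, themselves 36.8% of all regions. The pattern chose the regions, so neither share is a test of it.

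RBM25 is an RNA-binding protein of nuclear speckles that associates with the U1 small nuclear ribonucleoprotein, the particle that marks the start of an intron, and it takes part in the choice between alternative splice sites. It is best known for steering splicing of the apoptosis gene Bcl-x toward the death-promoting form, through an element that holds the hexamer CGGGCA. In RNA immunoprecipitation an antibody pulls down a protein with the RNA attached to it, and a second pull-down with a nonspecific IgG shows which RNA sticks without it.

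The organoids were grown from cochlear epithelium of mice at postnatal day 1 to 2, dissociated into single cells, expanded in Matrigel for 8 to 10 days with EGF, bFGF, IGF and the Wnt pathway activator CHIR99021, and then differentiated. Differentiation used CHIR99021 with the gamma-secretase inhibitor LY411575 for 7 to 8 days and then low EGF and bFGF for 9 to 10 days. Control organoids (genotype label WT) received a control lentivirus and depleted organoids (genotype label Rbm-KO) a lentivirus for Rbm25 knockdown, so every library comes from virus-treated cells of the cultured epithelium. Each genotype has IP (RBM25 antibody), IgG and Input libraries in 2 numbered replicates, 12 libraries in all. Nothing in the labels says that the replicates came from separate animals.

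The 8 lists held between 165 sites (depleted IP 2) and 813 sites (depleted IP 1), with 594 and 593 in the control IP lists and 430 to 511 in the IgG lists. Read counts were not used here, so depth is unknown, and being absent from a list says that no site was called there, not that no RNA was present. In particular the list of depleted IP 2 is short. Rbm25 itself had sites in depleted IP 1 alone (2 sites), and called sites do not measure how much Rbm25 was present. How far the knockdown went was not analysed here. Of the markers fixed for the organoid's cell types, the 8 lists held 1 of 21 for hair cells, 3 of 25 for supporting cells and otic epithelium, 3 of 5 for epithelium and 6 of 11 for mesenchyme, and 0 of 10 for neurons, 0 of 8 for immune cells, 0 of 6 for endothelium and 0 of 6 for melanocytes. For glia it was 1 of 7. Only a gene with a site in both control IP lists can hold a control IP-only region. Among these markers those were Eya1, Epcam, Krt18 and Col1a1, and none of them held one, against 48.8% of all 416 such genes. For every other marker the absence follows from the rule, so it says nothing about cell types.

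Where the regions lie at an annotated transcript start, their bases can be shown. Sequence was at hand for RefSeq windows of 250 bases before to 50 after each gene's start (build GRCm38.p6), and 12 of the 264 regions (4.55%) overlapped such a window, against 16 of the 306 shared regions that another list also held (5.23%). For 6 regions the first base of the control IP 1 site lay within 5 bases of the RefSeq start. These are printed as examples chosen for that closeness, which is therefore no result. In the other overlapping regions the first base lay 18 (Hmgn1) to 42 bases (Skp1a and Rpn1) downstream of the start, or 241 upstream (Nme2). Capitals mark the bases inside the control IP 1 site, lower case the bases outside it, read 5′ to 3′ on the gene's strand.
Trim28 (chr7:13024122-13024181, + strand): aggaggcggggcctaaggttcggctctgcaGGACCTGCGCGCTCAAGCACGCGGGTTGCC
Ptpn21 (chr12:98737376-98737435, - strand): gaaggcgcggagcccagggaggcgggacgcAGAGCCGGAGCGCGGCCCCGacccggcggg
Trmt10b (chr4:45297135-45297194, + strand): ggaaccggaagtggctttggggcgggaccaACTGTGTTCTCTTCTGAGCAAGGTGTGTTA
Tram2 (chr1:21079200-21079259, - strand): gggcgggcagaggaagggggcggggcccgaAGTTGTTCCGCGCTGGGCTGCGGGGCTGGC
Srsf5 (chr12:80945474-80945533, + strand): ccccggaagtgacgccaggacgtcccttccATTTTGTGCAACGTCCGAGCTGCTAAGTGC
Arsk (chr13:76098626-76098685, - strand): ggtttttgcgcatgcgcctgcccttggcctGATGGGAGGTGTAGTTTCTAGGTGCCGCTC

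In Trim28, a transcriptional corepressor, and Ptpn21, a protein tyrosine phosphatase, the site began exactly at the RefSeq start. Ptpn21's 20 bp site in control IP 1 had a fold of 3031 and its 41 bp site in control IP 2 a fold of 2593, while the 199 bp Trim28 site had folds of only 15.0 and 28.9. The fold is the enrichment that the authors' peak caller gave a site relative to its background. The sites of Trmt10b (a tRNA methyltransferase gene) and Tram2 (a gene for a translocation-associated membrane protein) reached 3 and 4 bases upstream of that start. Those of Srsf5 (an SR splicing factor) and Arsk (a sulfatase gene) began 5 bases downstream of it. Trmt10b had folds of 2283 and 2686 and Arsk 1433 and 1654, against 20.6 and 50.5 in Tram2 and 53.9 and 64.9 in Srsf5. High and low folds thus occurred side by side among sites at a start. The caller's false discovery rate was 100% in both libraries for Trim28, and 100% and 63.4% for Tram2. For Ptpn21, Trmt10b, Srsf5 and Arsk it was 16.2% in control IP 1 and 17.4% in control IP 2.

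The hexamer CGGGCA was searched on both strands, with no other motif. Of 14 overlaps between a region and a window, 1 held it, at the Arsk site in the overlap with the window of Ttc37, which starts on the opposite strand. The hexamer was on the strand of Ttc37, in bases upstream of its RefSeq start. On the strand of Arsk, the gene the site was assigned to, these bases read as the reverse complement. The bases printed above for Tram2 also hold CGGGCA on the gene's strand, but in lower case, upstream of the site and outside the overlap. Of all 32851 windows, 12.2% held the hexamer. Windows were searched whole and overlaps only over their shared 8 to 199 bases, so these shares cannot be compared. A share over the windows of the set's own genes is void, because 159 of the 203 genes (78.3%) had a window. A match is a string of letters and not a binding site, and most of the 264 regions lie outside any window and could not be searched.

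The other shared control IP regions mark the edge of the set. Of the 306, 244 were also in an IgG list, 187 were also in a depleted IP list, and 125 were in both kinds. The most frequent pattern, with 112 regions, was presence in all 4 IgG lists and in depleted IP 1. A single further list kept 70 regions out, and in 51 of these it was depleted IP 2, followed by depleted IP 1 with 11, depleted IgG 2 with 4, and control IgG 1 and depleted IgG 1 with 2 each. Control IgG 2 kept out none by itself. For the other groups, the matching pattern (both lists of the group and none of the other 6) held 65 regions in control IgG (4.2% of all regions), 14 in depleted IgG (0.904%) and 1 in depleted IP (0.0646%).

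**Figure D1:**
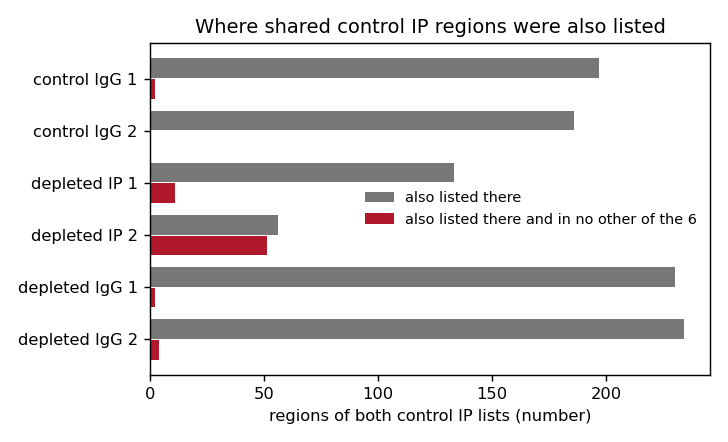
Number of the 570 regions shared by both control IP lists (horizontal axis) that each of the other 6 lists also held (grey), and the number that this list held with none of the other 5 (red). Depleted IP 2 held 56 of the shared regions, of which 51 were in no other of the 6 lists, and of the 230 and 234 held by the depleted IgG lists 2 and 4 were.

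Among the regions left just outside, the one with the smallest overlap was in Slc44a1, a choline transporter gene: its 11 bp control IP site lay wholly under a depleted IP 2 site (folds of 385 and 665 in control IP and 24.3 in depleted IP 2). The next were Eef2, an elongation factor gene, with 19 bp under a depleted IgG 1 site (17.4 and 39.8, against 3.89), Ppp2r5a, a phosphatase subunit gene, with 21 bp under depleted IP 2 (344 and 716, against 12.5), Rlf with 25 bp (5.91 and 6.88, against 3364) and Wdfy3 with 26 bp under depleted IgG 2 (50 and 168, against 11.2). Each of these overlaps covered the whole control IP 1 site. Just inside the set, Bsg, which encodes the cell surface glycoprotein basigin, had a region 21 bases from a depleted IP 1 site of the same gene (24.9 and 19.7, against 3.39). Pabpc1, the cytoplasmic poly(A)-binding protein gene, had 181 bases to a depleted IgG 1 site, Axin2 290 to a control IgG 1 site, Ptk2, the focal adhesion kinase gene, 509 to a control IgG 2 site and Rpl23a 557 to a depleted IP 1 site. Few regions were near the edge: 1 lay within 100 bases of a site of the other 6 lists, 9 within 1000 and 32 within 10000.

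The 264 regions were called nearly alike in both control libraries. Each held exactly 1 site per control IP list, assigned to the same gene in both, and 218 (82.6%) had identical start and end in both, against 76.1% of the other shared regions. The median fold was 258 in control IP 1 and 263 in control IP 2, with ranges of 2.34 to 6563 and 4.9 to 6481. In each library 60 regions had a fold of 1000 or more, and 16 and 13 had a fold below 10. The middle of the set ran from 62.5 to 867 in control IP 1 and from 68.4 to 864 in control IP 2 (lower to upper quartile). Across the 264 regions the Spearman correlation between both libraries' folds was 0.953, against 0.932 across the 306 other shared regions, so this agreement is not particular to the set. The regions share libraries and peak caller and are not independent replicates. In 55 regions the replicates were more than 2-fold apart, 123 regions being higher in control IP 2 and 141 in control IP 1.

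**Figure D2:**
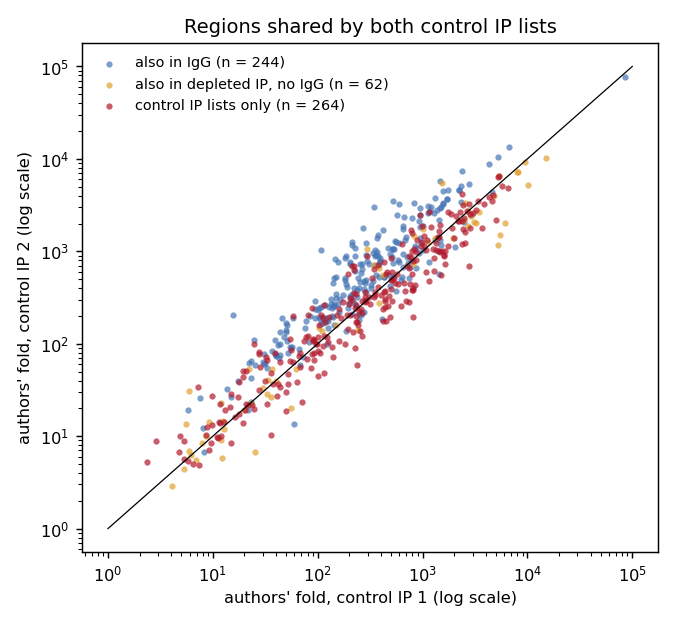
The authors' fold in control IP 1 (horizontal) against control IP 2 (vertical), both on log scales, for the 570 regions shared by both control IP lists, with the line of equal folds. The 264 control IP-only regions (red) scatter about the line over a range of 2.34 to 6563 in control IP 1, whereas most of the 244 regions also listed in IgG (blue) lie above it.

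The replicate difference went with presence in IgG. The median ratio of the fold in control IP 2 to that in control IP 1 was 0.973 over the control IP-only regions and 0.988 over the 62 regions that were also in depleted IP and in no IgG list. It was 1.97 over the 244 regions that were also in IgG, 213 of which (87.3%) were higher in control IP 2. The ratio was 2.25 over the 25 regions whose only further lists were both depleted IgG lists, 2.07 over the 112 in all 4 IgG lists and depleted IP 1, and 1.81 over the 57 in all 4 IgG lists and no depleted IP list. The groups overlap, since single regions of each lie on both sides of a ratio of 1. The median fold of the other 306 shared regions was 259 in control IP 1, almost that of the control IP-only regions, and 515 in control IP 2. No test was run on this difference, because regions of 2 libraries are not replicates.

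**Figure D3:**
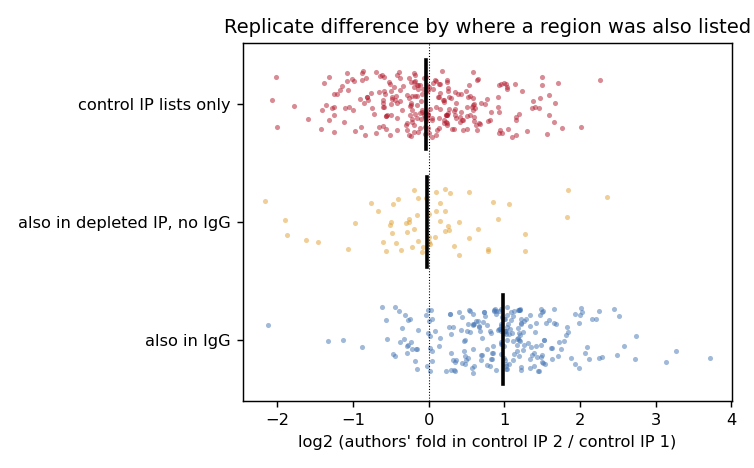
Log2 of the authors' fold in control IP 2 over control IP 1 (horizontal axis) for single regions (points, spread vertically for visibility) by where the region was also listed, with the median as a black bar and equal folds as a dotted line. The bars of the 264 control IP-only regions and of the 62 regions also in depleted IP without IgG lie at ratios of 0.973 and 0.988, and that of the 244 regions also in IgG at 1.97.

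Most of the regions shared 1 value of the peak caller's score. The score, 10 times the negative log10 of the caller's p, was exactly 3100 in 201 regions in control IP 1 and in 198 in control IP 2, and above it in 1 further region, that of Hist1h1d in control IP 2. Scores of 3100 or more were thus given to 76.1% and 75.4% of the regions, against 85.3% and 87.9% of the other shared regions. The regions at exactly 3100 all had the same false discovery rate within a library, 16.2% in control IP 1 and 17.4% in control IP 2, while the Hist1h1d site above it had 100%. The lowest rates among the 264 regions were 16.2% and 17.4% as well, so none was listed at a low rate. A rate of 100% was given to 33 regions in control IP 1 (12.5%) and 29 in control IP 2 (10.985%), against 10.5% and 9.15% of the other shared regions.

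The regions named 203 genes, of which 7 are predicted names. In 169 of these genes no other list held any site, and these genes account for 223 of the 264 regions. Of all 416 genes with a site in both control IP lists, 169 likewise had none in the other 6. Both counts are thus equal, and the first follows in part from the rule. The other 34 genes had a site elsewhere along the gene: 27 in a depleted IP list (18 in depleted IP 1 and 11 in depleted IP 2) and 17 in an IgG list. These counts are given without a share over all listed genes. Itpr1, the inositol trisphosphate receptor gene, had a site in depleted IP 2 with a fold of 436, 38507 bp from its region (818 and 380 in control IP). Zcchc8, a subunit gene of the nuclear exosome targeting complex, had folds of 1428 and 1000 at its control IP-only region and 6717 at a depleted IP 1 site 13729 bp away, where all 4 IgG lists had a site too. Itpr1 and Zcchc8 thus had a depleted IP site at another place along the gene, which for Zcchc8 was also listed in IgG.

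The highest folds fell on genes of varied function. Wdr8, a WD-repeat gene, had 5388 in control IP 1 and 6481 in control IP 2 at a 39 bp site on chromosome 4 (154151693 to 154151731). Another Wdr8 site, with folds of 5417.5 and 6501 in control IP, lay under a depleted IP 2 site with a fold of 40.4. That depleted IP 2 site was 829 bases from the control IP-only region. Ogdhl, which encodes an oxoglutarate dehydrogenase-like mitochondrial enzyme, had 2 regions on chromosome 14. Its 86 bp region had folds of 6563 and 4895 and its 18 bp region, 1389 bp further along, 5210 and 6441. Nup160, a nuclear pore scaffold subunit, had 5765 and 5085 at a 161 bp site on chromosome 2 (90721190 to 90721350). Wdr72, a WD-repeat gene tied to enamel formation, had 4667 and 4118, and Hsd17b13, a lipid droplet hydroxysteroid dehydrogenase gene, 4313 and 3855. In all of these the replicates were less than 1.5 times apart.

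The 5 lowest mean folds were those of Sparc, Hist1h4d, Clu, Tuba1a and Cryab. Sparc, a secreted matrix protein gene, had 2.34 and 5.19, at false discovery rates of 97.9% and 17.4%. Hist1h4d, a core histone H4 gene, had 2.85 and 8.94. Clu, which encodes the secreted chaperone clusterin, had 5.29 and 5.67, Tuba1a, an alpha-tubulin gene, 5.83 and 5.36, and Cryab, a small heat shock protein gene, 4.73 and 6.66, all at a rate of 100% in both libraries. Reads of tubulin, histone and ribosomal protein genes can fit several close copies, and which copy such a site belongs to is uncertain. Low-fold sites were wider: below a mean log2 fold of 5 the median width was 199 and 188 bp in the replicates (43 regions), at 5 to 10 it was 107 bp in both (158 regions), and at 10 or more 93 bp in both (63 regions).

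The replicates were farthest apart in Nisch, an integrin-binding protein gene, with 7.15 in control IP 1 and 34.2 in control IP 2, a ratio of 4.79. Next came a gene with a predicted name. Ep300, a histone acetyltransferase gene, had 237 and 58.3 at 1 region and 195 and 144 at its other one, 944 bp away. Dock6 had 24.6 and 99.2, and Fam83b, a signalling adaptor gene, 2778 and 691. Large replicate differences thus occurred at low and at high folds, and the standard deviation of the log2 ratio was 0.79 below a mean log2 fold of 5 and 0.64 at 10 or more.

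Of 416 genes with a site in both control IP lists, 203 (48.8%) held a control IP-only region, and the gene lists are read against this share. Among splicing and RNA-binding genes, 12 of 71 had a site in both control IP lists, and 7 of those 12 held such a region. Clk2, a kinase that phosphorylates SR proteins, had 2 regions, with folds of 1547 and 1019 and of 634 and 1196. Ccnl2, cyclin L2, and Cdk11b, the cyclin-dependent kinase that partners with L-type cyclins in splicing, had 1 region each on chromosome 4, with 1109.8 and 1316 in Ccnl2 and 812.5 and 790 in Cdk11b. Other control IP sites of Ccnl2 were also in further lists. A neighbouring one (1126 and 1252) was held by depleted IP 2 at a fold of 13.75, and another (55 and 91.3) by depleted IgG 2 at 37.2. Akap8l, a nuclear anchoring protein gene, was the only gene with 3 regions, at 193 and 567, at 292 and 291, and at 19.4 and 43.2. Its second region thus had equal folds in both libraries while the first was 2.94 times apart.

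Hnrnpu, which encodes a chromatin-associated RNA-binding protein, had 124 and 104 at 1 region and 9.67 and 8.41 at a second 574 bp away. Ddx17, a DEAD-box RNA helicase gene, had 112 and 192 at a 35 bp region and 80.2 and 121 at a 210 bp region. The remaining member was Srsf5, shown above at its transcript start. Acin1, Qk, Snrnp70, Srsf7 and Ybx1 were in both control IP lists and held no control IP-only region.

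**Figure D4:**
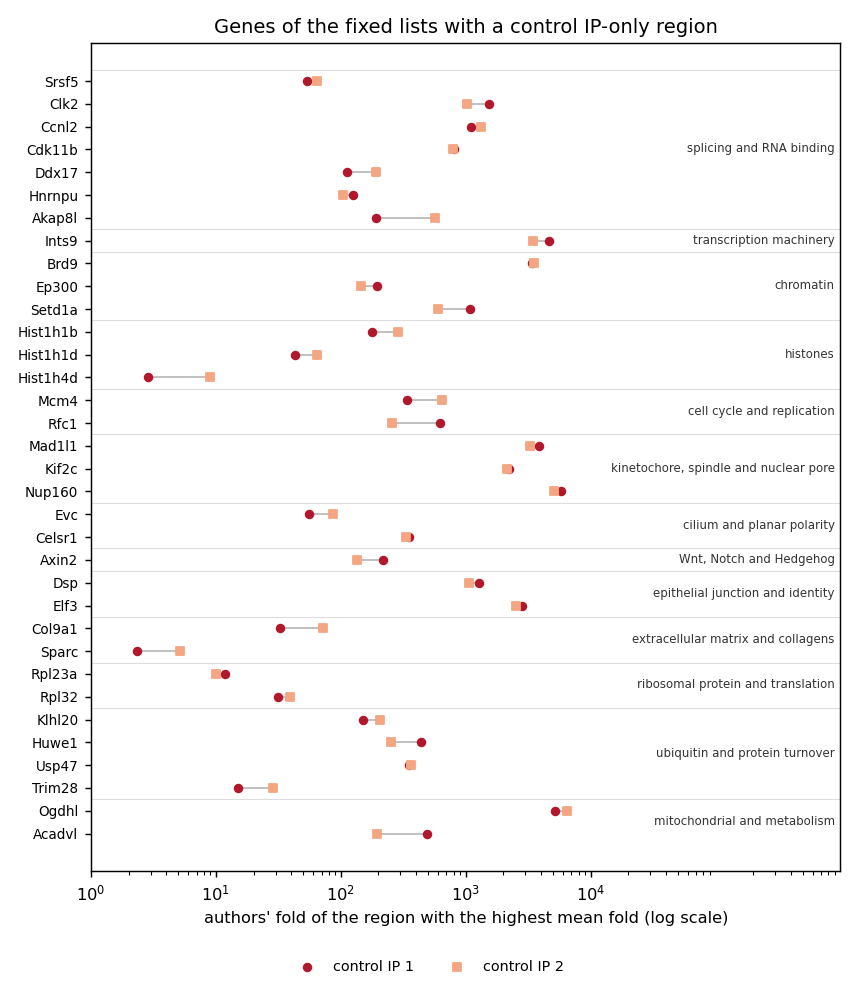
The authors' fold in control IP 1 (circles) and control IP 2 (squares), on a log scale, for the genes of the fixed lists that held a control IP-only region, at the region with the highest mean fold, grouped by list. Folds run from 2.34 in Sparc (control IP 1) to 6441 in Ogdhl (control IP 2), with Nup160, Mad1l1, Ints9, Brd9 and Elf3 among the highest.

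In the spindle, kinetochore and nuclear pore list 5 of 42 genes were in both control IP lists, and 3 of the 5 held a region. Mad1l1, a spindle checkpoint gene, had 2 regions, with 3848 and 3273 and with 5071 and 2187. Kif2c, a microtubule-depolymerizing kinesin gene, had 2 regions 1764 bp apart with nearly the same fold in each library, 2207 and 2124 in the first and 2198 and 2124 in the second. Numa1 and Tpr, in both control IP lists, had none. In the cell cycle and replication list 2 of 5 held a region: Mcm4, a replicative helicase subunit gene, with 341 and 647, and Rfc1, the large clamp loader subunit gene, with 617 and 258 and with 467.5 and 257.

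Chromatin genes had 3 of 6. Brd9, a bromodomain subunit of a SWI/SNF complex, had 3407 and 3511 at 1 region and 2459 and 1747 at the other, Setd1a, a histone H3 methyltransferase gene, had 1078 and 598 and 406 and 333, and the third was Ep300. Of transcription machinery genes, 1 of 3 held a region, Ints9, an Integrator subunit gene, with 4628 and 3468 and with 2470 and 2313. Histone genes had 3 of 4, with Hist1h1b, a linker histone gene, at 176 and 285, Hist1h1d at 43.3 and 64.2, and Hist1h4d.

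Epithelial genes had 2 of 4. Elf3, an epithelial transcription factor gene, had regions at 2834 and 2503 and at 2103 and 2420, with no site in any of the other 6 lists. Dsp, the desmoplakin gene of desmosomes, had 1268 and 1057 at a 167 bp region and 95.8 and 99.4 at a 7 bp region, the narrowest of the set. Dsp was also listed elsewhere in both control IgG lists, at folds of 11.4 to 19.7. Ciliary and planar polarity genes had 2 of 6, Celsr1, a polarity cadherin gene (349 and 334), and Evc, a ciliary Ellis-van Creveld protein gene, whose region had only 55.8 and 86.6, at a false discovery rate of 100% in both. Evc's other control IP sites were also held by depleted IP 2.

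Ubiquitin genes had 4 of 9: Huwe1, a large ubiquitin ligase gene on the X chromosome (440 and 251, and 230 and 264), Usp47, a deubiquitinase gene (352 and 362), Klhl20, a ligase adaptor gene (152 and 207), and Trim28. Metabolic genes had 2 of 3, Ogdhl and Acadvl, a mitochondrial acyl-CoA dehydrogenase gene (486 and 194). In the Wnt, Notch and Hedgehog list 1 of 2 held a region, Axin2, a Wnt target and feedback inhibitor (217 and 134). Matrix genes had 2 of 6, Sparc and Col9a1, a collagen IX chain gene (32.5 and 72.0), and ribosomal protein and translation genes 2 of 7, Rpl32 (31.3 and 39.4) and Rpl23a (11.9 and 10.0). Elsewhere along the gene, Col9a1 had folds of up to 1555 in depleted IP 1 and 5641 in depleted IP 2. Sparc had up to 25.3 and Rpl23a 302 in depleted IP 1, whereas Rpl32 had no site in the other 6 lists. The secretory list had 1 gene in both control IP lists, Ern1, and it held none. With 1 to 12 genes per list, none of these shares can be told from 48.8% without a test, and none was run.

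The genes with the most regions showed a common layout. Of the 203 genes, 143 had 1 region, 59 had 2 and 1 had 3, so 121 regions lay in genes with several. The regions next to each other in a gene made 61 pairs, with a median gap of 1959 bp (555 to 247168 bp). Paired regions were narrow, with a median width of 65 bp in control IP 1 and 68 bp in control IP 2. The median was 199 bp in both libraries for regions that were the only control IP-only region of their gene. Such a gene can have further control IP sites outside the set, as Col9a1 did, with 4 sites in each control IP list. The summed width of a pair had a median of 139 bp. Exon coordinates were not used here, so whether neighbouring narrow regions are pieces of 1 call divided by introns was not tested, and counts, widths and folds of paired regions may then describe 1 site more than once. In 36 of the 61 pairs the 2 regions were less than 2-fold apart in both libraries, and the median ratio within a pair was 1.52 in control IP 1 and 1.53 in control IP 2. Examples were Fam134a, an endoplasmic reticulum membrane protein gene now named Retreg2, with 1752 and 2662 and with 1141 and 2672, and Ptpn21, whose second region had 3267 and 2803. Zfp410, a zinc finger gene, had 1336 and 1238 at 1 region and 2670 and 2742 at the other, which was about the same ratio in both libraries.

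**Figure D5:**
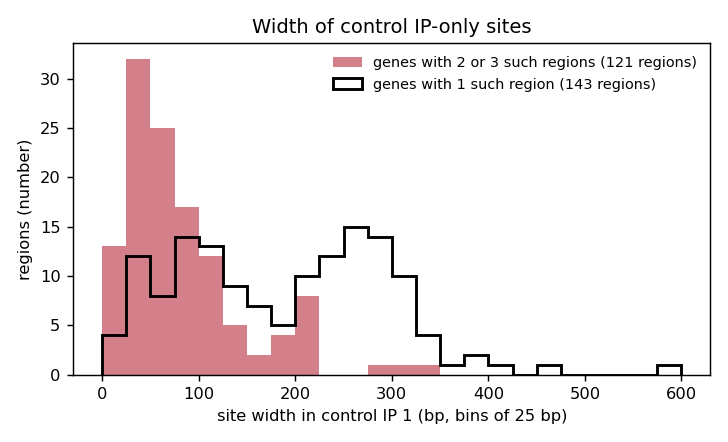
Width of the control IP 1 site in bp (horizontal, bins of 25 bp) against the number of regions (vertical), for the 121 regions in genes with 2 or 3 control IP-only regions (filled) and the 143 regions in genes with 1 control IP-only region (line). The first group has a median of 65 bp and the second of 199 bp.

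The regions were on 20 chromosomes, with 27 on chromosome 11 and 21 each on chromosomes 1 and 4. A comparison of their position along the gene is void, because both the gene's span and its strand were known for only 210 of the 264 (79.5%). RefSeq NM_ transcripts made up 91.3% of the assigned transcripts (89.5% of the other shared regions). The median width was 108 bp in control IP 1 and 107 bp in control IP 2, against 135 and 134 bp.

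The deposited lists carry terms beside each gene. Of 197 genes with a cellular component term, 53.8% carried nucleus and 51.3% cytoplasm, against 49.9% and 50.6% of the 399 such genes in both control IP lists, which include them. Poly(A) RNA binding was carried by 15.8% of 196 genes with a molecular function term, against 15.7% of 395. Pathway terms were carried by 78 of the genes, out of 169 in both control IP lists, and the frequent ones covered few genes each. Metabolic pathways were carried by 11.5% against 12.4%, Cell cycle and PI3K-Akt signalling each by 8.97% against 6.51%, cGMP-PKG signalling by 8.97% against 4.73% (7 of 8 genes), Wnt signalling and Alzheimer's disease each by 7.69% against 4.14% (6 of 7), Insulin signalling by 6.41% against 3.55% (5 of 6) and Gastric acid secretion by 6.41% against 2.96% (5 of 5). These counts describe the lists and were not tested.

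The lists labelled Input held every one of the 264 sites of their replicate, with unchanged boundaries. The control Input lists, with 396 and 399 sites, were identical in position to the control IP list of the same replicate without the sites that share a base with its IgG list. They therefore add no independent measurement.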

How the data were processed

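Each of the 12 libraries has a deposited list of sites on mRNAs. Per the submitters' processing notes, the tools included HISAT2 2.0.4 and cutadapt 1.9.3, with mm8 as build; site names carry the prefix MACS. For the caller, neither version nor background library is stated in the labels or headers. Coordinates are those of the lists, with starts counted from 1. Of 257 regions whose gene is in a GRCm38.p6 gene table, 254 (98.8%) lay inside that gene, so the coordinates appear to be on GRCm38.

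Per the file headers, the deposited fold enrichment is the authors' ratio over the caller's background, the false discovery rate is in percent, and the deposited score is 10 times the negative log10 of the p-value. These values are the authors'. Folds were also set side by side across lists, although each list was called separately and a common scale is not stated. From them were computed merged regions (1 bp overlap), medians, ratios and counts, with Python 3.11.15 and pandas 2.3.3. Merging was tested on simulated lists. With 2 libraries per group and values at called sites only, no test was run. The Input lists did not enter the rule.

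The members and gene lists were chosen with earlier results of these data known. Named are the 10 genes with the most regions, the regions with the 10 highest and 5 lowest mean folds, the 5 with the largest replicate difference, up to 4 genes per list, and the 5 closest to another list on either side of the rule. Other genes were chosen after their values were seen. Of the 203 genes, 196 had an identifier in the RefSeq table and 12 of these have another symbol there. Alternatives were another overlap, a merging distance, genes in place of regions, filters on fold, width and false discovery rate, and each list left out.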

Additional observations from a re-analysis of the deposited data

How the results depend on the processing

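Without 1 list at a time the count of control IP-only regions was 264 to 315 and that of genes 203 to 236, highest without depleted IP 2, and the median fold was 239.5 to 280.005 and the median width 106 to 109.5 bp. Left-out control IP lists leave regions that rest on 1 library. When each list was limited to its upper 50% of folds there were 142 regions in 108 genes (median fold 1244, width 98.3 bp), with sites of 100 bp or more 141 regions in 135 genes (212 and 210 bp, the width following from the filter), and with genes in place of regions 169. Against a main median fold of 260.9 ± 3.73 and width of 107 ± 0.707 bp (SD, n = 2), an overlap of 50% of the shorter site gave 257 and 108 bp, a rate below 100% gave 341 and 104.5 bp, and sites merged within 100 bp gave a width of 106 bp. The median replicate ratio stayed between 0.948 and 1.04 under all alternatives run for it. No paired analysis was possible because the results come from lists of called sites and from no test. Depth is unknown, so a missing site can be RNA below the caller's threshold, most of all in the 165 sites of depleted IP 2.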

Other observations

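Genes that belong to none of the fixed lists made up 169 of the 203. The following groups were put together after the values were seen and carry no test. Genes of mRNA processing and decay held control IP-only regions at folds over a wide range. Cwc15, a spliceosome component gene, had 1907 and 1784 in the replicates, with a second region at 877 and 1310. Cstf2, a cleavage stimulation factor gene on the X chromosome, had 1043 and 1478, and Upf2, a nonsense-mediated decay gene, 497 and 847.5. Tnrc6a, which encodes a partner of Argonaute in miRNA silencing, had 199 and 267, and Wtap, of the RNA methyltransferase complex, 228 and 89.3. Igf2bp2, an mRNA-binding protein gene, had 140 and 71.7 at 1 region and 73.8 and 107.5 at the other, at false discovery rates of 29.0% to 66.4%.

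A second group lay in insulin and growth factor signalling. Eif4ebp1, a translation repressor downstream of mTOR, had 2004 and 1400, Rps6kb1, the S6 kinase gene of the same branch, 1150 and 475, and Irs1, the insulin receptor substrate, 517 and 292. Irs3 had 211 and 299. Ksr1, a scaffold of the MAP kinase cascade, had 1200 and 1846, Nf1, a negative regulator of Ras, 801 and 1569, and Frs2, an adaptor of fibroblast growth factor receptors, 1295 and 843. Flcn, the folliculin gene, had 1433 and 1417 and a second region with 947 and 2500. Among centrosome genes, Pcnt (pericentrin) had 3700 and 1780, Cdk5rap2 1503 and 559, and Odf2 377 and 713. In these groups the replicates were 1.01 to 2.69 times apart, the same order as elsewhere in the set.

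The median replicate ratio was near 1 in regions absent from IgG and near 2 in those also found there, the pattern in these lists most open to a second look. It was 2.25 in the 25 regions whose only further lists were both depleted IgG lists, 0.903 in the 51 regions whose only further list was depleted IP 2, and 1.195 in the 11 regions whose only further list was depleted IP 1, of which 8 were higher in control IP 2. The libraries' backgrounds and depths were not analysed here, and their part in it was not tested.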
